A study of Drosophila melanogaster with 16 samples.

Results

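Turandot genes and the JAK-STAT signalling genes were followed through the heads of flies that express a short or a long repeat transgene. The set holds 10 genes, taken by symbol from 17558 genes in the count files. TotA, TotC, TotM and TotX are Turandot genes. The remaining 6 are upd2, upd3, dome, hop, Stat92E and Socs36E, which carry or restrain the JAK-STAT signal. All 10 were present in the files and all 10 passed the filter on low counts, which left 13525 genes for testing.

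JAK-STAT signalling in Drosophila starts with secreted Unpaired cytokines. They bind the receptor Domeless (dome), whose associated Janus kinase Hopscotch (hop) is thereby activated. The kinase phosphorylates the transcription factor Stat92E, which enters the nucleus and turns on targets, among them Socs36E, a feedback inhibitor of the pathway. Turandot genes encode small secreted peptides that are made mainly by the fat body and accumulate in the hemolymph under heat, infection, injury and other stress. In the adult fly, upd3 is known as a cytokine released by damaged gut and by blood cells.

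RNA came from the heads of male flies, 5 to 8 days after eclosion, kept at 25 °C. The series models FTD and ALS caused by C9ORF72, diseases in which a repeat in that gene is expanded. The 4 groups sequenced were Chrom3-160R, Chrom3-5R, Chrom2-160R and Chrom2-5R. Flies of the Chrom3-160R group expressed the long repeat (160R) and those of the Chrom3-5R group the short repeat (5R) from chromosome 3. Flies of the Chrom2-160R group expressed 160R and those of the Chrom2-5R group 5R from chromosome 2. Each group had 4 libraries, so there were 16 in all, and every group carried a transgene. The sources used here name neither the strain nor the driver that sets where the transgene is expressed. Nor do they say whether the 4 libraries of a group came from separate crosses, so the p-values measure a spread between libraries that may be only technical.

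Chrom3-160R libraries held 48118158 to 49792428 counts in total and Chrom3-5R libraries 42854987 to 53615117. Totals of the Chrom2-160R libraries were 19047916 to 30496479 and those of the Chrom2-5R libraries 11452337 to 23498476. Depth therefore went with the insertion chromosome. Levels are given below as CPM, read counts scaled to the size and composition of each library. Chrom2-160R replicate 1 stood apart on the first principal component, at 45.5 against 13.7 to 22.4 for the other Chrom2-160R libraries, and so did Chrom3-160R replicate 4, at 19.6 against -1.9 to 4.5. Muscle markers were highest within their group in each of these 2 libraries, which are called below the libraries that stood apart. In Chrom3-5R, replicate 2 also lay away from the rest on that component, at 0.7 against -16.9 to -12.1. It too was the highest of its group in muscle markers, but was left out only singly. Neuron markers (8 of 8 in the files) summed to 4650 to 5080 CPM in Chrom3-160R and 4810 to 4990 CPM in Chrom3-5R. In chromosome 2 flies they summed to 5580 to 5640 CPM in Chrom2-160R and 4930 to 5210 CPM in Chrom2-5R. Photoreceptor markers (10 of 10) summed to between 15500 and 32800 CPM over all libraries. Genes listed as markers of the male accessory gland and ejaculatory bulb summed to between 418 and 849 CPM. PebIII made up most of this, with group means of 436 CPM in Chrom3-160R, 460 in Chrom3-5R, 620 in Chrom2-160R and 721 in Chrom2-5R. Whether the PebIII reads came from the head itself was not tested. In Chrom2-160R replicate 1 Peb reached 99.9 CPM and PebII 14.7 CPM, against group means of at most 0.256 and 0.0737 CPM in the other 3 groups. Midgut markers summed to between 44.4 and 127 CPM. No listed marker of any cell type was at 0 in all libraries of a group.

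Compared per kilobase of gene span, introns included, TotA had the highest level of the 10 genes. Its group means lay between 89 and 159 CPM per kb. TotC followed, between 36.1 and 72.1 CPM per kb, and then Stat92E, between 19.4 and 24.8 CPM per kb, with TotX between 13.2 and 34.9 CPM per kb. The receptor, the kinase and the inhibitor were lower and close together. Here dome lay between 7.72 and 9.21 CPM per kb, hop between 6.65 and 7.13 CPM per kb and Socs36E between 5.66 and 6.32 CPM per kb. TotM spanned 4.06 to 22.7 CPM per kb. The cytokine genes were near the detection limit, upd2 between 0.056 and 0.158 CPM per kb and upd3 between 0.0375 and 0.102 CPM per kb.

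The long repeat was compared with the short one on each chromosome, with a gene called where edgeR's quasi-likelihood test gave a Benjamini-Hochberg adjusted p below 0.05 over all genes tested. On chromosome 2, 2 of the 10 genes were called, upd3 higher and Stat92E lower in Chrom2-160R. Over all genes tested 26.1% were called in this comparison (12.8% higher and 13.3% lower). The share among the 10 genes was near that background, and their median log2 fold change was 0 against 0.01 over all genes. On chromosome 3, edgeR called none of the 10 genes, against 2.11% of all genes tested. There 3 genes, TotX, upd2 and Stat92E, had an unadjusted p below 0.05. DESeq2 called 1 of the 10 (Stat92E, adjusted p = 0.0279) and limma-voom called 0, against 531 of 13220 and 416 of 13525 genes in all. The share of all genes with an unadjusted p below 0.05 was not counted, so such counts here and below have no background. The median log2 fold change of the 10 genes on chromosome 3 was 0.08 against 0 over all genes.

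The change on chromosome 3 minus that on chromosome 2 was tested as an interaction, which called 2 of the 10 genes, again upd3 and Stat92E, with 7.27% of all genes called (3.9% with a higher value and 3.36% with a lower one). The insertion lines themselves were compared at each repeat length. With 160R, 5 of the 10 genes differed between chromosome 3 and chromosome 2 flies, TotA, TotX and Stat92E higher and upd3 and dome lower in Chrom3-160R, with 22.5% of all genes called. With 5R, 3 of the 10 genes differed, TotX higher and dome and Socs36E lower in Chrom3-5R, with 30.3% of all genes called. In these comparisons the insertion chromosome, depth and any other difference between the lines cannot be told apart. All comparisons share groups, so their values stand side by side and are not independent of one another.

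**Figure D1:**
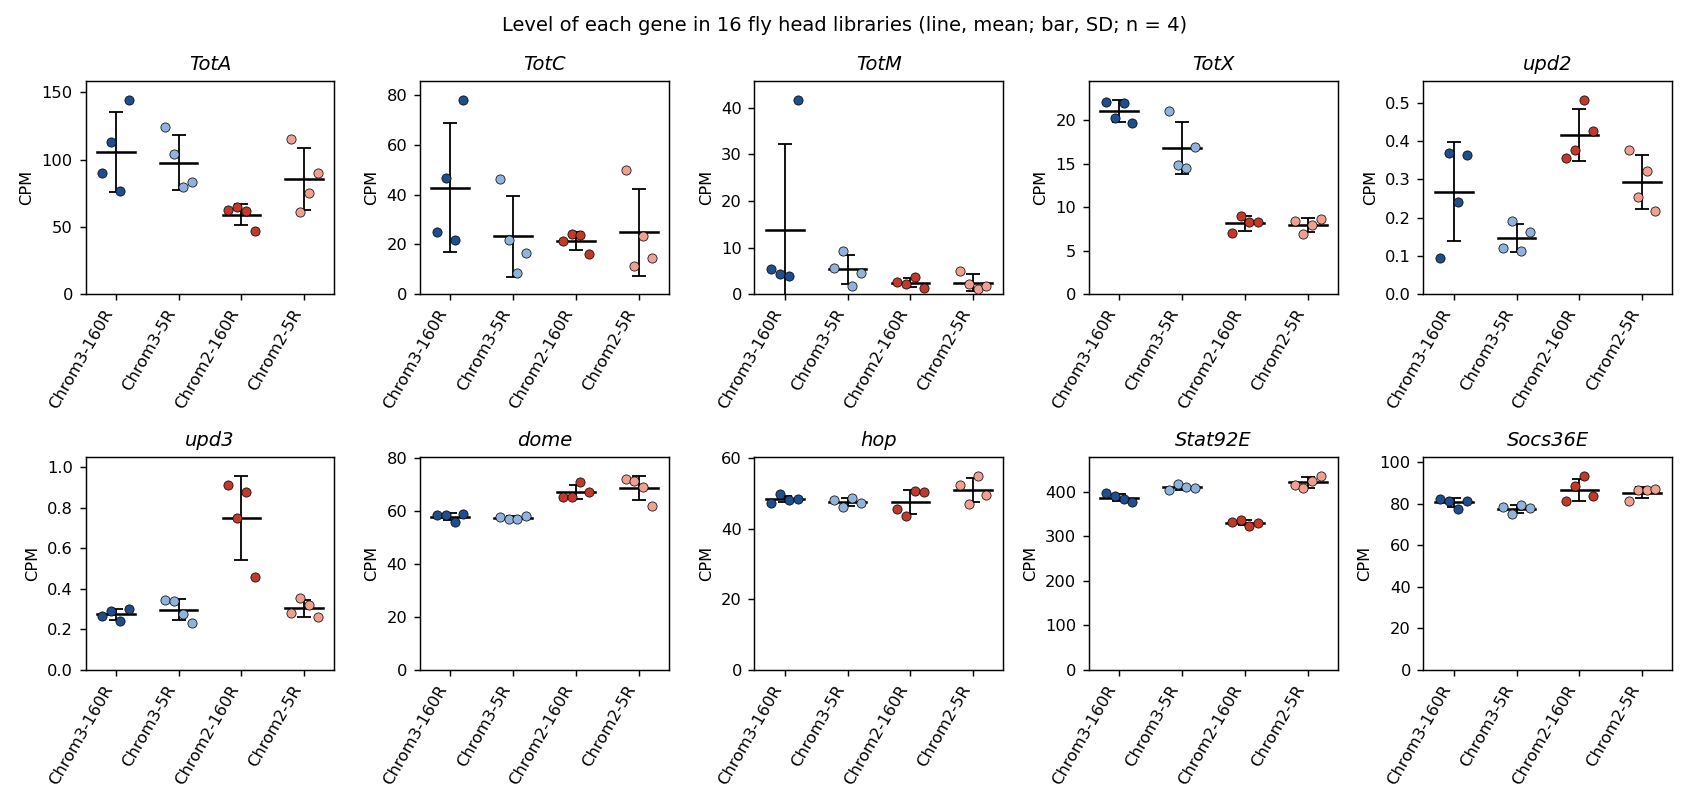
Level of each of the 10 genes in each library, in CPM on a linear axis that starts at 0, by group. Points are libraries, horizontal lines the means and bars the SD (n = 4). The upd3 points of Chrom2-160R (0.457 to 0.912 CPM) and the Stat92E points of Chrom2-160R (323 to 336 CPM) do not overlap those of Chrom2-5R, and TotX lies higher in both chromosome 3 groups than in the chromosome 2 groups.

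The cytokine gene upd3 (FBgn0053542, X:18277233-18284596, plus strand, 1 protein-coding transcript with 30.2% of the span exonic) had 0.912, 0.752, 0.877 and 0.457 CPM in the 4 Chrom2-160R libraries, against 0.283, 0.355, 0.322 and 0.261 CPM in the Chrom2-5R libraries. Every Chrom2-160R library was above every Chrom2-5R library, and replicate 4 was the lowest of the Chrom2-160R libraries. This was a log2 fold change of 1.26 ± 0.28 (SE, 95% interval 0.67 to 1.85, edgeR adjusted p = 0.00344), or a 2.4-fold higher level. The means were 0.75 ± 0.207 CPM in Chrom2-160R and 0.305 ± 0.0419 CPM in Chrom2-5R (SD, n = 4 each).

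These levels rest on few reads. The Chrom2-160R libraries held 14 to 26 upd3 counts each and the Chrom2-5R libraries 3 to 7, or 72 and 22 counts in sum. The call held in 22 of 22 alternatives that gave a value, with the log2 fold change between 1.13 and 1.46. In a fit of the chromosome 2 libraries alone, and under the stricter filter, upd3 did not pass the filter on low counts and has no value. Without Chrom2-160R replicate 1 and Chrom3-160R replicate 4 the log2 fold change was 1.15 (edgeR adjusted p = 0.0141).

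On chromosome 3 upd3 had 0.267, 0.292, 0.241 and 0.302 CPM in Chrom3-160R, against 0.343, 0.341, 0.274 and 0.234 CPM in Chrom3-5R. The groups overlapped. Counts per library were 12 to 15 for Chrom3-160R and 12 to 17 for Chrom3-5R. Between them upd3 gave a log2 fold change of -0.11 ± 0.24 (SE, 95% interval -0.61 to 0.4, edgeR adjusted p = 0.907). Chrom2-160R was thus the group that stood apart from the other 3, whose means lay between 0.276 and 0.305 CPM. Between the 160R groups upd3 was lower in Chrom3-160R than in Chrom2-160R, with a log2 fold change of -1.41 ± 0.23 (SE, edgeR adjusted p = 0.000437). Between the 5R groups the log2 fold change was -0.04 ± 0.3 (SE, adjusted p = 0.943).

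The interaction for upd3, the log2 change on chromosome 3 minus that on chromosome 2, was -1.37 ± 0.37 (SE, 95% interval -2.15 to -0.58, edgeR adjusted p = 0.0357). This call was close to the threshold. It was lost in 14 of 21 alternatives, with adjusted p between 0.013 and 0.0852 over them and the value between -1.57 and -1.22. Leaving out any library other than Chrom2-160R replicate 4, Chrom3-160R replicate 4, Chrom3-5R replicate 3 or Chrom3-5R replicate 4 was enough to lose it. Without both libraries that stood apart the value was -1.3 (adjusted p = 0.062).

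The second cytokine gene, upd2 (FBgn0030904, X:18240654-18243284, minus strand), lies 33.9 kb from upd3. In the adult it is known as a fat-derived cytokine that reports the fed state. It had 0.0955, 0.37, 0.241 and 0.363 CPM in Chrom3-160R, against 0.121, 0.192, 0.114 and 0.162 CPM in Chrom3-5R. In chromosome 2 flies it had 0.355, 0.376, 0.506 and 0.425 CPM in Chrom2-160R, against 0.377, 0.254, 0.322 and 0.218 CPM in Chrom2-5R. Both pairs of groups overlapped, and counts per library did not exceed 19. For upd2 the log2 fold change of 160R against 5R was 0.83 ± 0.35 on chromosome 3 (SE, 95% interval 0.09 to 1.57, edgeR adjusted p = 0.271) and 0.59 ± 0.4 on chromosome 2 (SE, 95% interval -0.26 to 1.43, adjusted p = 0.31). Without Chrom3-160R replicate 1, the lowest library of its group, the chromosome 3 value was 1.11 and was called (adjusted p = 0.0442). This was the only call there in 22 alternatives. The upd2 level was over the cutoff of the low-count filter (0.273 CPM) in 2 Chrom3-160R, 0 Chrom3-5R, 4 Chrom2-160R and 2 Chrom2-5R libraries, and the upd3 level in 3, 3, 4 and 2. The founding ligand os (unpaired 1), 20.8 kb from upd3, had at most 8 counts in a library and did not pass the filter.

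The receptor gene dome (FBgn0043903, X:19676061-19683518, minus strand) did not pass the test between repeat lengths. Its log2 fold change was 0.01 ± 0.045 on chromosome 3 (SE, 95% interval -0.08 to 0.11, edgeR adjusted p = 0.941) and -0.03 ± 0.046 on chromosome 2 (SE, 95% interval -0.12 to 0.07, adjusted p = 0.726). It differed between the insertion lines instead. With 160R it had 58.7, 58.5, 56 and 58.9 CPM in Chrom3-160R, against 65.4, 65.3, 71.2 and 67.4 CPM in Chrom2-160R. With 5R it had 57.9, 57.1, 57.1 and 58.2 CPM in Chrom3-5R, against 72.3, 71.3, 69.2 and 62.1 CPM in Chrom2-5R. Every chromosome 3 library was below every chromosome 2 library, with log2 fold changes of -0.22 ± 0.046 with 160R (SE, edgeR adjusted p = 0.00288) and -0.25 ± 0.046 with 5R (SE, adjusted p = 0.000545). Both calls held in 24 of 24 alternatives.

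The kinase gene hop (FBgn0004864, X:11360930-11368098, minus strand) was called in none of the 5 comparisons by edgeR, had an unadjusted p below 0.05 in 0 of them, and was called in none of the alternatives. Its means were 48.5 ± 0.986 CPM in Chrom3-160R, 47.6 ± 1.1 CPM in Chrom3-5R, 47.6 ± 3.52 CPM in Chrom2-160R and 51.1 ± 3.37 CPM in Chrom2-5R (SD, n = 4 each). The widest interval for 160R against 5R, on chromosome 2, ran from -0.21 to 0.02 on the log2 scale. With the highest group mean 1.07 times the lowest, hop was the most even of the 10 genes.

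The transcription factor gene Stat92E (FBgn0016917, 3R:20535323-20552311, minus strand, 11 transcripts, 30.7% of the span exonic) had 332, 336, 323 and 330 CPM in Chrom2-160R, against 415, 408, 425 and 435 CPM in Chrom2-5R. The groups were far apart relative to their spread, with means of 330 ± 5.63 CPM in Chrom2-160R and 421 ± 11.9 CPM in Chrom2-5R (SD, n = 4 each). Stat92E was lower in Chrom2-160R, with a log2 fold change of -0.35 ± 0.032 (SE, 95% interval -0.42 to -0.28, edgeR adjusted p = 1.51e-06). The call held in 24 of 24 alternatives, with the value between -0.37 and -0.33. In whole heads, fewer cells of a type and less RNA per cell cannot be told apart.

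On chromosome 3 Stat92E had 396, 391, 384 and 377 CPM in Chrom3-160R, against 404, 417, 411 and 409 CPM in Chrom3-5R. Here too every 160R library was below every 5R library, but the distance was small. It came to a log2 fold change of -0.08 ± 0.032 (SE, 95% interval -0.15 to -0.02), with an adjusted p of 0.222 by edgeR and 0.0279 by DESeq2. The interaction was 0.27 ± 0.045 (SE, 95% interval 0.17 to 0.36, edgeR adjusted p = 0.00204) and was called in 23 of 23 alternatives. The log2 changes of Stat92E on the 2 chromosomes thus differed by more than their error.

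Between the 160R groups Stat92E was higher in Chrom3-160R than in Chrom2-160R, with a log2 fold change of 0.23 ± 0.032 (SE, edgeR adjusted p = 9.5e-05). Between the 5R groups the log2 fold change was -0.04 ± 0.032 (SE, adjusted p = 0.44). From high to low the group means were in the order Chrom2-5R, Chrom3-5R, Chrom3-160R and Chrom2-160R. Of the neighbours in that order, Chrom3-160R and Chrom2-160R were called as different, and the other pairs did not pass the test. Stat92E varied little within groups. Its biological coefficient of variation, edgeR's estimate of the spread between replicates beyond counting error, was 0.046 against a median of 0.0806 over all genes tested, and 0.288% of genes had a lower one.

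The feedback inhibitor gene Socs36E (FBgn0041184, 2L:18138675-18152417, minus strand) is a direct Stat92E target and is often used as a readout of the pathway. Its means were 80.7 ± 2.26 CPM in Chrom3-160R, 77.7 ± 2 CPM in Chrom3-5R, 86.8 ± 5.33 CPM in Chrom2-160R and 85.4 ± 2.75 CPM in Chrom2-5R (SD, n = 4 each). On chromosome 3 the log2 fold change of 160R against 5R was 0.05 ± 0.043 (SE, 95% interval -0.04 to 0.14, edgeR adjusted p = 0.607). It was 0.02 ± 0.044 on chromosome 2 (SE, 95% interval -0.07 to 0.12, adjusted p = 0.758), where upd3 was higher and Stat92E lower. Between the 5R groups Socs36E was lower in Chrom3-5R than in Chrom2-5R by a small amount, with a log2 fold change of -0.14 ± 0.044 (SE, edgeR adjusted p = 0.0243). That call was lost in 5 of 24 alternatives: with no filter on low counts (adjusted p = 0.0821), without Chrom2-5R replicate 2 (0.0675), 3 (0.0683) or 4 (0.0569), and without Chrom3-5R replicate 2 (0.0634). The opposite-strand RNA CR44478 overlaps Socs36E with 0.00763 times its counts.

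**Figure D2:**
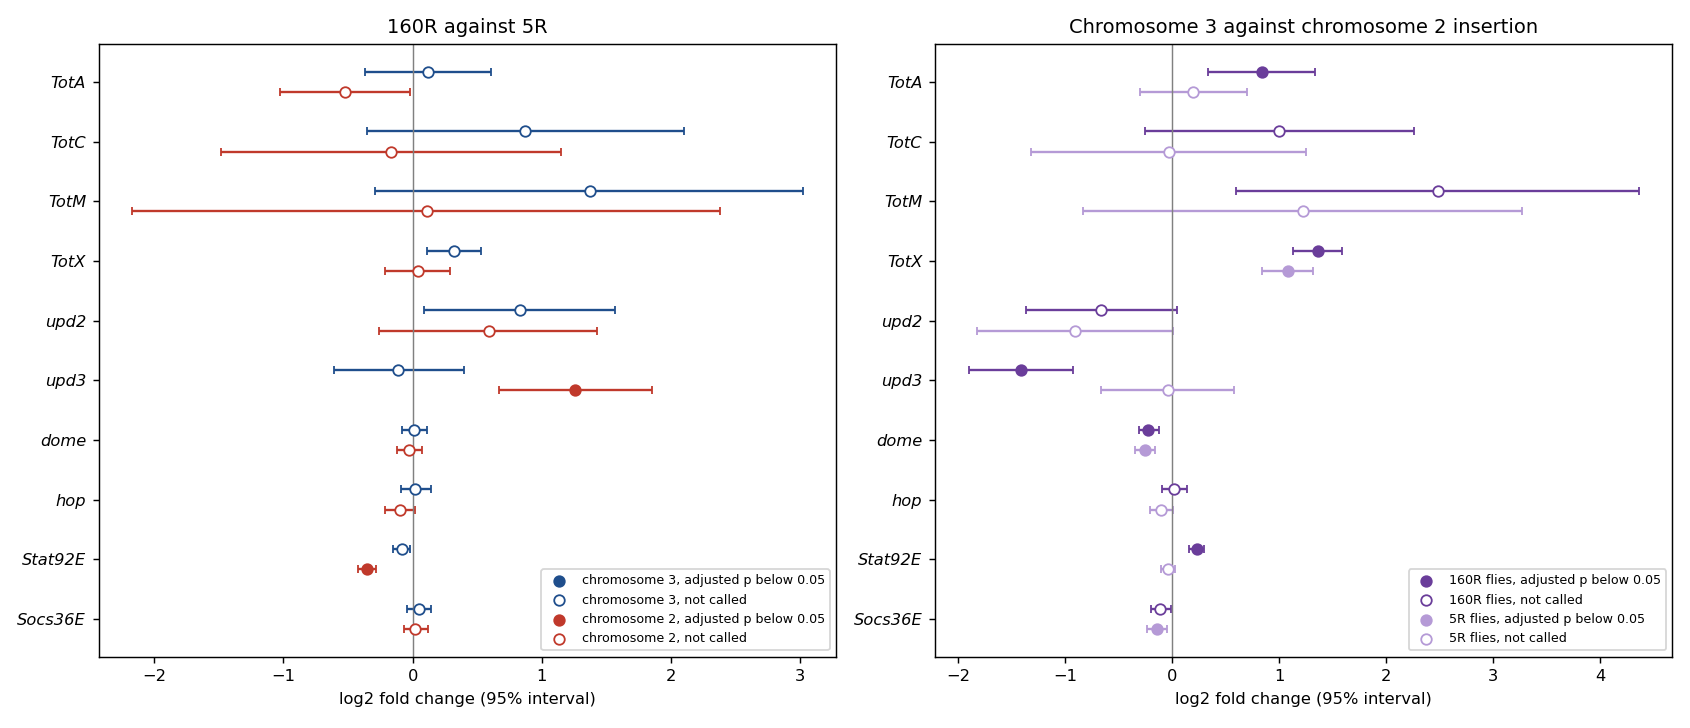
Log2 fold change of each of the 10 genes with its 95% interval, filled where the edgeR adjusted p was below 0.05. The left panel shows 160R against 5R on chromosome 3 (blue) and chromosome 2 (red), where upd3 (1.26) and Stat92E (-0.35) are called on chromosome 2 and no gene on chromosome 3. The right panel shows chromosome 3 against chromosome 2 insertion in 160R (dark) and 5R (light) flies, with intervals for TotC and TotM several times as wide as those for the signalling genes.

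Of the 4 Turandot genes, none was called between 160R and 5R on either chromosome by edgeR, DESeq2 or limma-voom. Of all genes tested, edgeR called 26.1% on chromosome 2 and 2.11% on chromosome 3. A count over 4 genes is too small to be told apart from these shares. One on each chromosome had an unadjusted p below 0.05 in the edgeR fit, TotX on chromosome 3 and TotA on chromosome 2. TotA and TotC are paralogs that lie 1287 bases apart, and how reads that match several places were handled is not given in the sources used here, so the split of reads between them is uncertain.

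TotA (FBgn0028396, 3R:20871036-20871700, plus strand) had 62.6, 64.7, 62.1 and 47.2 CPM in Chrom2-160R, against 115, 61, 75.6 and 89.8 CPM in Chrom2-5R. The groups overlapped, and the Chrom2-160R libraries lay at the low end. TotA gave a log2 fold change of -0.52 ± 0.23 (SE, 95% interval -1.03 to -0.02, edgeR adjusted p = 0.12). On chromosome 3 TotA had 89.8, 113, 76.4 and 144 CPM in Chrom3-160R, against 124, 104, 79.6 and 83.5 CPM in Chrom3-5R, with a log2 fold change of 0.12 ± 0.23 (SE, 95% interval -0.37 to 0.61, adjusted p = 0.868). That value turned to -0.07 without Chrom3-160R replicate 4 (adjusted p = 0.941).

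Between the 160R groups every Chrom3-160R library was above every Chrom2-160R library for TotA. TotA was higher in Chrom3-160R by a log2 fold change of 0.84 ± 0.23 (SE, 95% interval 0.34 to 1.34, edgeR adjusted p = 0.0199). Without Chrom3-160R replicate 4 it was 0.67 (adjusted p = 0.0511), without Chrom2-160R replicate 4 it was 0.75 (adjusted p = 0.0584), and without both libraries that stood apart it was 0.69 (adjusted p = 0.0779). The call held in 21 of 24 alternatives, with the value between 0.67 and 0.97 over all 24, but leaving out a single library could be enough to lose it.

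TotC (FBgn0044812, 3R:20872988-20873580, plus strand) had 24.8, 46.7, 21.7 and 77.8 CPM in Chrom3-160R, against 46.2, 21.9, 8.5 and 16.7 CPM in Chrom3-5R. In chromosome 2 flies it had 21.5, 24.2, 23.7 and 16.1 CPM in Chrom2-160R, against 49.8, 11.5, 23.5 and 14.5 CPM in Chrom2-5R. Libraries of 1 group differed by up to 5.44-fold, and both pairs of groups overlapped. TotC gave a log2 fold change of 160R against 5R of 0.87 ± 0.56 on chromosome 3 (SE, 95% interval -0.35 to 2.1, edgeR adjusted p = 0.511) and -0.17 ± 0.6 on chromosome 2 (SE, 95% interval -1.48 to 1.15, adjusted p = 0.884). The chromosome 3 value was 0.41 without Chrom3-160R replicate 4 (adjusted p = 0.85), and the chromosome 2 value ran from -0.41 to 0.38 over the alternatives.

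TotA and TotC were highest in the same replicate and lowest in the same replicate in 4 of 4 groups. In Chrom3-160R these were replicate 4 and replicate 3, in Chrom3-5R replicate 1 and replicate 3, in Chrom2-160R replicate 2 and replicate 4, and in Chrom2-5R replicate 1 and replicate 2. This is a description of 16 libraries in which the genes share library, depth and possibly reads.

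TotM (FBgn0031701, 2L:5329857-5330464, plus strand), which lies on another chromosome arm and whose induction by septic injury is known, had 5.35, 4.36, 3.94 and 41.6 CPM in Chrom3-160R, against 5.66, 9.35, 1.71 and 4.65 CPM in Chrom3-5R. Replicate 4 of Chrom3-160R held 2062 TotM counts, whereas the other libraries of that group held 196 to 280. In chromosome 2 flies TotM had 2.64, 2.2, 3.64 and 1.4 CPM in Chrom2-160R, against 5.09, 2.18, 1.13 and 1.7 CPM in Chrom2-5R. Its coefficient of variation, 0.741, was the widest of the 10 genes, and 99.5% of all genes tested had a lower one. TotM gave a log2 fold change of 160R against 5R of 1.37 ± 0.76 on chromosome 3 (SE, 95% interval -0.29 to 3.02, edgeR adjusted p = 0.442) and 0.11 ± 1 on chromosome 2 (SE, 95% interval -2.17 to 2.38, adjusted p = 0.962). Without Chrom3-160R replicate 4 the chromosome 3 value turned to -0.23 (adjusted p = 0.905), and that on chromosome 2 ran from -0.18 to 0.56 over the alternatives.

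Between the 160R groups TotM did not overlap, with a log2 fold change of 2.48 ± 0.87 for Chrom3-160R against Chrom2-160R (SE, 95% interval 0.6 to 4.36). Its adjusted p was 0.0587 by edgeR and 0.00821 by DESeq2, and edgeR called it without Chrom3-160R replicate 2 (0.0434) or replicate 3 (0.042). Without Chrom3-160R replicate 4 the log2 fold change was 0.89 (adjusted p = 0.268), and without both libraries that stood apart 0.91 (adjusted p = 0.335). Intervals this wide cannot show changes of the size seen for Stat92E.

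**Figure D3:**
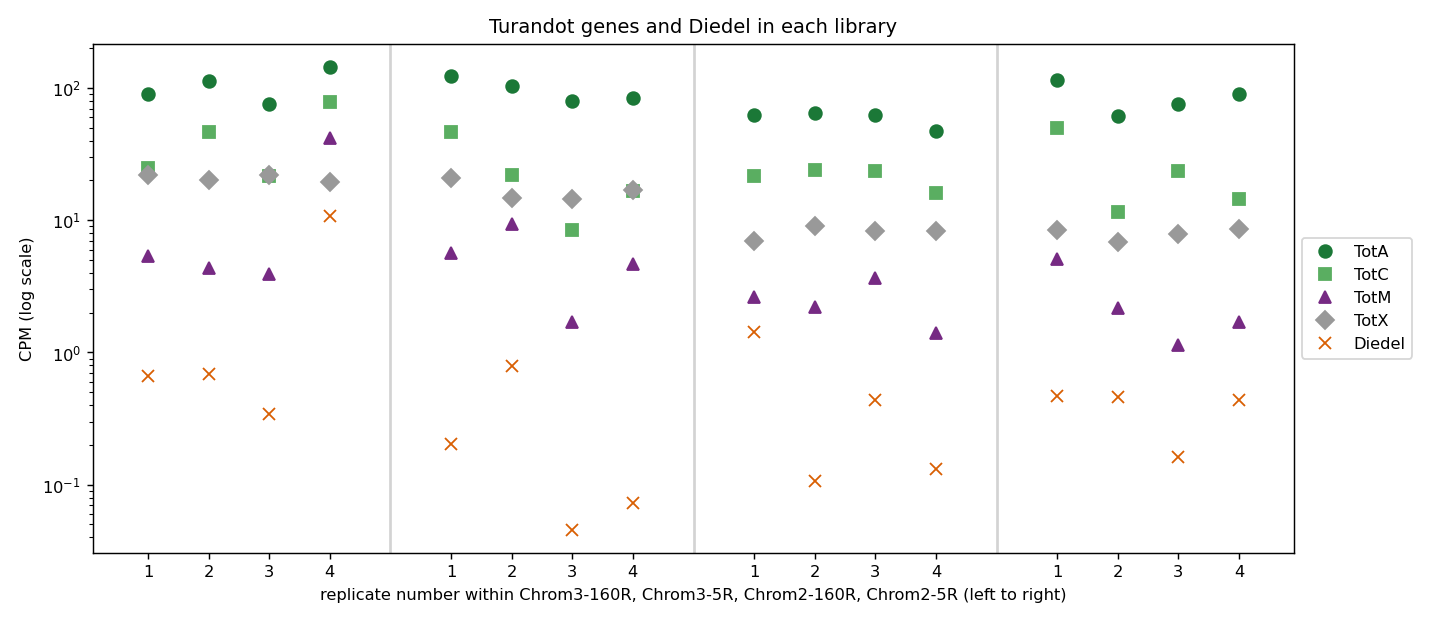
CPM on a log scale of the 4 Turandot genes and Diedel in each of the 16 libraries, in the order Chrom3-160R, Chrom3-5R, Chrom2-160R and Chrom2-5R. In Chrom3-160R replicate 4, TotA (144), TotC (77.8), TotM (41.6) and Diedel (10.7) reach their highest CPM of all libraries, while TotX (19.6) does not.

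The Chrom3-160R replicate 4 library was the highest of all 16 for TotA, TotC and TotM. It was also the highest for Diedel, a secreted immune regulator on the pathway list, at 10.7 CPM against 0.342 to 0.682 CPM in the other Chrom3-160R libraries. Diedel was picked out after its values were seen. This is one of the libraries that stood apart. Muscle markers summed to 7730 CPM in it, the highest of a group that began at 4920 CPM, against 4950 to 5830 CPM in Chrom3-5R. Their part in the Turandot values was not tested.

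TotX (FBgn0044810, 3R:20904917-20905518, minus strand, 1 exon) was the Turandot gene that differed most evenly between lines. It had 22.1, 20.2, 22 and 19.6 CPM in Chrom3-160R, against 6.99, 9.02, 8.33 and 8.29 CPM in Chrom2-160R. With the short repeat it had 21, 14.8, 14.5 and 16.9 CPM in Chrom3-5R, against 8.39, 6.9, 7.9 and 8.66 CPM in Chrom2-5R. No chromosome 3 library overlapped the chromosome 2 libraries. TotX was higher on chromosome 3, with log2 fold changes of 1.36 ± 0.11 with 160R (SE, 95% interval 1.13 to 1.59, edgeR adjusted p = 5.23e-07) and 1.08 ± 0.11 with 5R (SE, 95% interval 0.84 to 1.32, adjusted p = 3.81e-06). Both calls held in 24 of 24 alternatives.

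Between repeat lengths TotX gave a log2 fold change of 0.32 ± 0.1 on chromosome 3 (SE, 95% interval 0.11 to 0.53, edgeR adjusted p = 0.132) and 0.04 ± 0.12 on chromosome 2 (SE, 95% interval -0.21 to 0.29, adjusted p = 0.857). Without Chrom3-5R replicate 1, the highest of its group, the chromosome 3 value was 0.44 and was called (adjusted p = 0.0132). This was the only call there in 24 alternatives.

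These TotX values need their neighbourhood beside them. TotX lies wholly within intron 6 of all 3 transcripts of CG5621, a gene on the opposite strand (3R:20901956-20908263) that the reference names call Grik, for a kainate-type glutamate receptor subunit. No poly(A) selection was made, so unspliced RNA could be read, and the protocol preserved strand. In the count files, however, a gene nested on the opposite strand hardly ever exceeded its host. In 1624 such pairs with at least 100 counts the inner gene was not above the host in 1619 (99.7%), and in 21 pairs where the inner gene covers at least 80% of the host the median ratio of counts was 0.94. Reads of TotX and reads of the CG5621 intron can therefore not be told apart in these files.

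CG5621 held 3.17 times the counts of TotX and was higher in 16 of 16 libraries. TotX counts were 39.1% to 44.1% of CG5621 counts in Chrom3-160R, against 25.7% to 27.6% in Chrom3-5R, and 19.6% to 23.8% in Chrom2-160R, against 23.6% to 25.9% in Chrom2-5R. The Chrom3-160R libraries lay above all others.

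The CG5621 counts cover the TotX span, so CG5621 was also fitted with the TotX counts taken off in each library. As counted, CG5621 was higher in Chrom3-160R than in Chrom2-160R, with a log2 fold change of 0.43 (edgeR adjusted p = 0.00587). With the TotX counts taken off it had 29.2 ± 3.23 CPM in Chrom3-160R and 29.2 ± 2.04 CPM in Chrom2-160R (SD, n = 4 each), a log2 fold change of 0 ± 0.1 (SE, adjusted p = 0.999). Between the 5R groups CG5621 was higher in Chrom3-5R either way, by 0.94 as counted (adjusted p = 7.33e-06) and by 0.89 with the TotX counts taken off (adjusted p = 1.95e-05). The levels without TotX counts were 45.2 ± 7.03 CPM in Chrom3-5R and 24.5 ± 2.41 CPM in Chrom2-5R (SD, n = 4 each).

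Between repeat lengths on chromosome 3, CG5621 gave a log2 fold change of -0.31 ± 0.096 as counted (SE, adjusted p = 0.134). Without the TotX counts it was lower in Chrom3-160R, with a log2 fold change of -0.63 ± 0.1 (SE, adjusted p = 0.00237), opposite in sign to the value of TotX. On chromosome 2 it gave 0.21 as counted (adjusted p = 0.153) and 0.26 without the TotX counts (adjusted p = 0.0957). The interaction for CG5621 was called both ways, at -0.51 (adjusted p = 0.0383) and -0.89 (adjusted p = 0.0022), whereas that of TotX was 0.28 ± 0.16 (SE, adjusted p = 0.309).

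**Figure D4:**
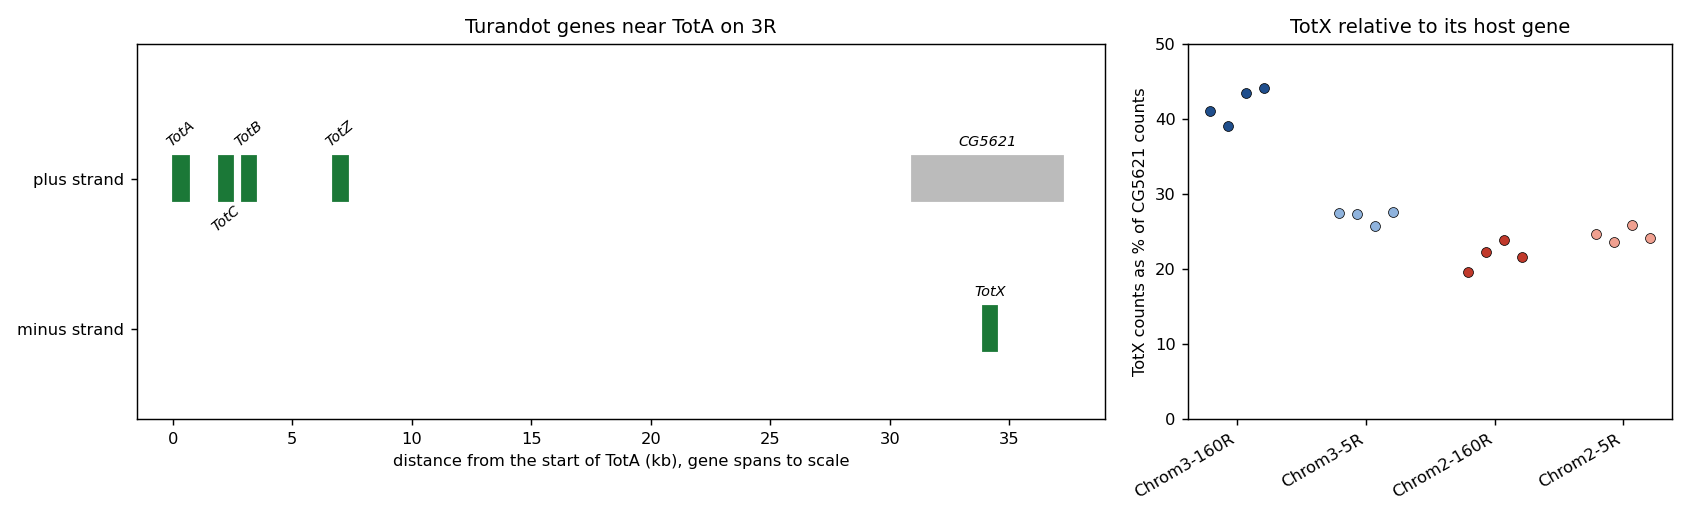
Left, spans of the Turandot genes near TotA and of CG5621 on arm 3R by strand, in kb from the start of TotA, drawn to scale. Right, TotX counts as a percentage of CG5621 counts in each library by group. TotX lies inside CG5621 on the other strand, and the 4 Chrom3-160R libraries (39.1% to 44.1%) sit above the other 12.

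Fat body markers, a list of 11 genes of which 10 were in the files, differed in summed level between the groups. The fat body is the main known source of Turandot peptides. Their summed level ran from 7790 to 8690 CPM in Chrom3-160R, against 9900 to 10900 CPM in Chrom3-5R, and from 6170 to 6950 CPM in Chrom2-160R, against 10500 to 12100 CPM in Chrom2-5R. Rfabg made up most of this sum, with group means of 7050 CPM in Chrom3-160R, 8430 in Chrom3-5R, 5740 in Chrom2-160R and 9080 in Chrom2-5R. On chromosome 2, 6 of 10 were called lower and 0 higher in Chrom2-160R, against 13.3% of all genes tested called lower and 26.1% in either direction. The median log2 fold change of the 10 was -0.73. Fbp1 (4.17 CPM in Chrom2-160R, 0.501 in Chrom2-5R) and Fbp2 (0.682 and 0.0968 CPM) went the other way without a call. On chromosome 3, 1 of 10 was called lower and 0 higher in Chrom3-160R, with a median of -0.21, against 2.11% of all genes called. There too Fbp1 (3.93 CPM in Chrom3-160R, 0.299 in Chrom3-5R) and Fbp2 (0.69 and 0.13 CPM) were higher with 160R without a call. Both reached their highest CPM of all libraries in Chrom3-160R replicate 4 (14.3 and 2.12), so these means rest largely on that library. It was also the highest library for TotA, TotC and TotM. Hemocyte markers (11 of 11 in the files) had a summed level of 1310 to 1500 CPM in Chrom3-160R, against 1470 to 1640 CPM in Chrom3-5R, and of 1250 to 1340 CPM in Chrom2-160R, against 1420 to 1480 CPM in Chrom2-5R. On chromosome 2, 1 of the 11 was called higher and 2 lower in Chrom2-160R, against 26.1% of all genes. The median log2 fold change of the 11 was 0.02 there and -0.09 on chromosome 3. Group means of Hml, He, Sr-CI, eater, Pxn and crq were higher in Chrom2-160R than in Chrom2-5R. Those of NimC1, srp, PPO1, PPO2 and Nplp2 were lower, with Nplp2 furthest apart in CPM (362 in Chrom2-160R, 533 in Chrom2-5R). Between the insertion lines, 3 of the 10 fat body markers were higher and 0 lower in Chrom3-160R than in Chrom2-160R, and 0 were higher and 3 lower in Chrom3-5R than in Chrom2-5R. Of the hemocyte markers, 5 of 11 were higher and 0 lower in Chrom3-160R than in Chrom2-160R, and 7 were higher and 1 lower in Chrom3-5R than in Chrom2-5R. Over all genes tested, 22.5% were called between the 160R groups (11.8% higher and 10.7% lower in Chrom3-160R). Between the 5R groups 30.3% were called (15.4% higher and 14.9% lower in Chrom3-5R). Counted in either direction, the fat body counts were near that background and the hemocyte counts were above it.

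Photoreceptor markers went with the line. Their summed level was 15500 to 17200 CPM in Chrom3-160R, against 19900 to 24000 CPM in Chrom2-160R, and 15700 to 16900 CPM in Chrom3-5R, against 23100 to 32800 CPM in Chrom2-5R. At both repeat lengths 9 of the 10 were called lower in chromosome 3 flies, with a median log2 fold change of -0.36 with 160R and -0.54 with 5R. Of all genes, 22.5% were called with 160R (10.7% lower in chromosome 3 flies) and 30.3% with 5R (14.9% lower). Between repeat lengths 4 of the 10 were called lower in Chrom2-160R than in Chrom2-5R, against 13.3% of all genes called lower and 26.1% in either direction. On chromosome 3, 0 were called, against 2.11% of all genes. Of the 8 neuron markers, 5 were called higher and 0 lower in Chrom2-160R than in Chrom2-5R, against 12.8% of all genes called higher. Between the 160R groups 0 were higher and 6 lower in Chrom3-160R, against 10.7% of all genes called lower. Of the 10 muscle markers, 3 were called higher and 0 lower in Chrom2-160R than in Chrom2-5R, with a median log2 fold change of 0.48. On chromosome 3 no neuron or muscle marker was called. The part of fat body, hemocytes, photoreceptors, neurons and muscle in the values of the Turandot genes, upd3, Stat92E, dome and Socs36E was not tested.

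Around the 10 genes, 32 further symbols were listed, of which 30 were in the files and 27 passed the filter. They include stress kinases and factors upstream of the Turandot or upd genes, and are called pathway genes here for short. On chromosome 2, 3 were called higher and 4 lower in Chrom2-160R, 25.9% of the 27 against 26.1% of all genes tested, with a median log2 fold change of -0.01. On chromosome 3, edgeR called 0 of 27, against 2.11% of all genes. There 6 had an unadjusted p below 0.05. DESeq2 and limma-voom called 2 each, against 531 of 13220 and 416 of 13525 genes in all. The other Turandot genes gave little. TotB and TotZ, which lie between TotC and TotX, reached at most 13 and 4 counts in a library. TotF and Victoria passed the filter but lie inside sick, a gene on the other strand with 497 and 723 times their counts.

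Among targets and antiviral or wound response genes, Listericin, which encodes an antibacterial peptide, was higher in Chrom2-160R, with 62.8, 79.9, 74.9 and 58.1 CPM in Chrom2-160R, against 51.8, 44.1, 43.4 and 48.2 CPM in Chrom2-5R. The log2 fold change was 0.56 ± 0.1 (SE, edgeR adjusted p = 8e-04). On chromosome 3 it had 44, 40.7, 39.9 and 45.1 CPM in Chrom3-160R, against 58.7, 61.2, 47.4 and 54.1 CPM in Chrom3-5R, a log2 fold change of -0.38 ± 0.097 that just missed the threshold (SE, adjusted p = 0.0536). In neither pair did the groups overlap, and the signs were opposite. The interaction was -0.94 ± 0.14 (SE, edgeR adjusted p = 0.000835).

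The thioester protein gene Tep2 was lower in Chrom2-160R, with a log2 fold change of -0.37 ± 0.06 (SE, edgeR adjusted p = 0.000313). On chromosome 3 its value was -0.23 ± 0.059 (SE, adjusted p = 0.0503), at 314 to 368 CPM in Chrom3-160R, against 394 to 406 CPM in Chrom3-5R. It was called there in 11 of 24 alternatives, and Listericin in 7 of 24. The virus-induced gene vir-1 was lower in Chrom2-160R, with a log2 fold change of -0.31 ± 0.05 (SE, adjusted p = 0.000308), and gave -0.04 ± 0.05 on chromosome 3 (SE, adjusted p = 0.804). Its interaction was 0.27 ± 0.07 (SE, adjusted p = 0.0281). That call was lost without Chrom2-160R replicate 4 (0.0516), Chrom2-5R replicate 1 (0.0505) or Chrom2-5R replicate 3 (0.0658).

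The gene et, which encodes a short receptor that dampens the pathway and lies 169 bases from dome, was lower in Chrom2-160R, with a log2 fold change of -0.4 ± 0.089 (SE, edgeR adjusted p = 0.00342). It overlaps Zw on the other strand, which had 1.28 times its counts and itself gave -0.26 (adjusted p = 0.025). Of the 6 other negative regulators, edgeR called none on either chromosome, against 26.1% of all genes on chromosome 2 and 2.11% on chromosome 3. Among the 6, 3 on chromosome 2 and 1 on chromosome 3 had an unadjusted p below 0.05. DESeq2 and limma-voom called 0 of the 6. Leaving out a single library brought calls on chromosome 2 for Socs16D in 10 of 24 alternatives (log2 fold change -0.13 and adjusted p = 0.0639 with all libraries, lowest 0.0225) and for Su(var)2-10 in 1 of 24 (0.0346 without Chrom2-160R replicate 3).

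Of the 10 stress kinases and factors tested, the JNK gene bsk and the NF-kappaB gene Rel were higher in Chrom2-160R and the Fos gene kay was lower. This was 30% of the 10, against 26.1% of all genes tested. The log2 fold change of bsk was 0.32 ± 0.049 (SE, edgeR adjusted p = 0.00021) and that of kay -0.19 ± 0.04 (SE, adjusted p = 0.00268). Rel gave 0.32 ± 0.093 (SE, adjusted p = 0.0207), but it lies inside the span of Nmdmc, on the same strand, which had 1.62 times its counts and gave 0.49 (adjusted p = 0.0114). The Rel call was lost in 5 of 24 alternatives, without Chrom2-160R replicate 3 (0.0521), without Chrom2-5R replicate 1 (0.0517), 3 (0.0521) or 4 (0.0543), and in a fit of the 2 groups alone (0.0702).

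**Figure D5:**
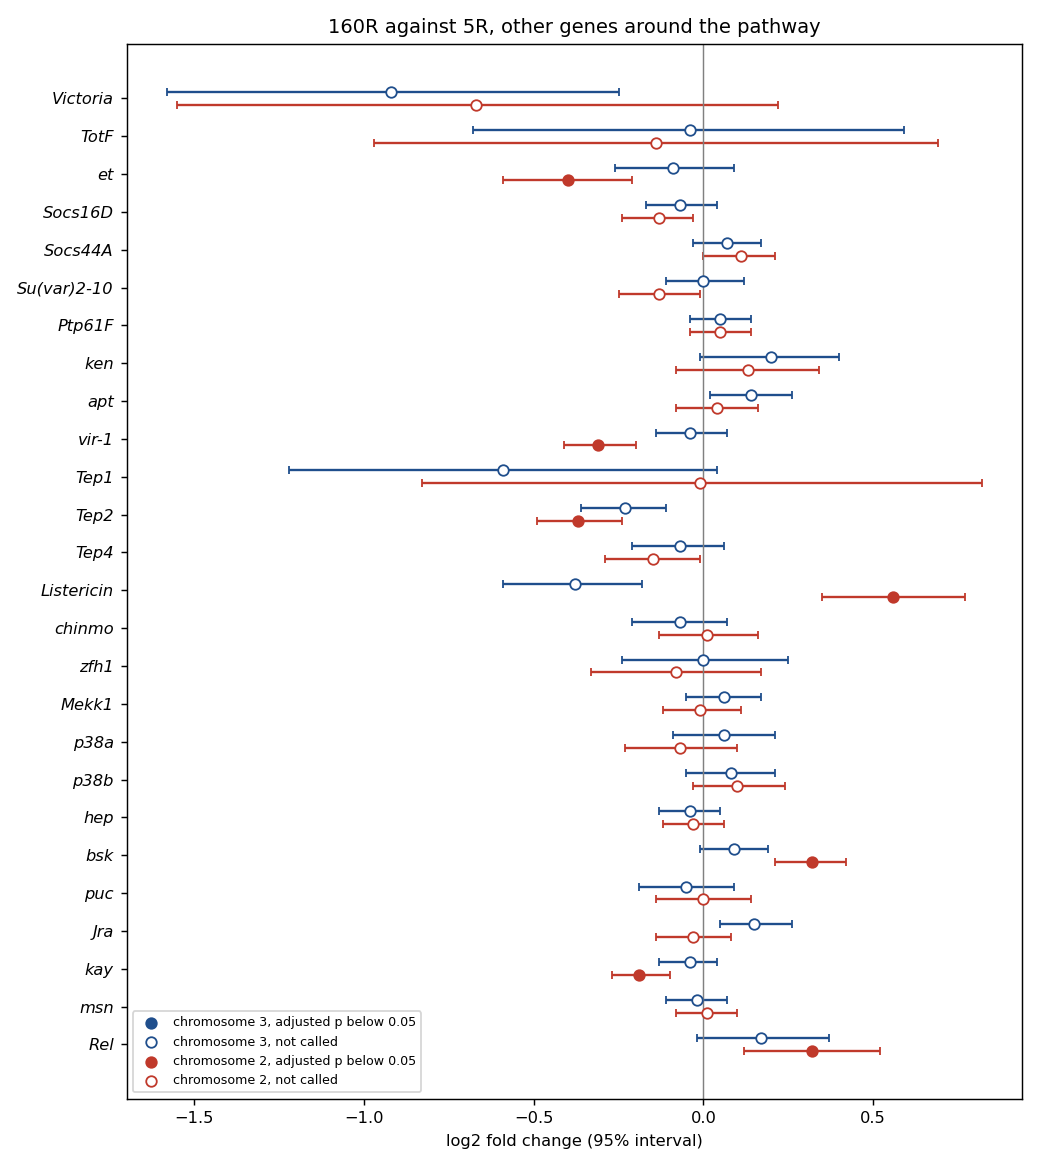
Log2 fold change of 160R against 5R with its 95% interval for the further pathway genes that passed the filter, other than Diedel, on chromosome 3 (blue) and chromosome 2 (red), filled where the edgeR adjusted p was below 0.05. On chromosome 2, 7 genes are filled, and Listericin lies on opposite sides of 0 on the 2 chromosomes.

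Between the insertion lines, 1 of the 27 pathway genes (the stress kinase gene p38a, log2 fold change 0.26) was higher and 4 were lower in Chrom3-160R than in Chrom2-160R, namely Listericin (-0.7), Tep4 (-0.2), the Jun gene Jra (-0.16) and Socs16D (-0.15). This was 18.5% of the 27 against 22.5% of all genes tested. With 5R, 0 were higher and 7 lower in Chrom3-5R, namely Jra (-0.34), zfh1 (-0.33), Tep4 (-0.28), Socs16D (-0.21), vir-1 (-0.18), Tep2 (-0.18) and kay (-0.13), or 25.9% of the 27 against 30.3% of all genes tested. Jra, Tep4 and Socs16D were lower in chromosome 3 flies at both repeat lengths. The calls of Listericin between the 160R groups and of Jra, Tep4, Socs16D and vir-1 between the 5R groups held in 24 of 24 alternatives. Those between the 160R groups were lost in 16 alternatives for Socs16D (adjusted p up to 0.169), 13 for Tep4 (0.129), 7 for Jra (0.114) and 1 for p38a (0.0573, without Chrom3-160R replicate 1). Between the 5R groups they were lost in 16 for zfh1 (0.136), 7 for Tep2 (0.0942) and 3 for kay (0.0819).

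Genes with the pattern most like that of each called gene were taken by the smallest root mean square difference in log2 CPM over the 16 libraries, each gene centred on its own mean. For upd3, whose own SD over libraries was 0.557, these were CG8303 (0.209), CG30095 (0.239) and IM23 (0.247). For Stat92E, with an SD of 0.139, they were Aldh-III (0.0415), Treh (0.0456) and CG5009 (0.0578). TotA (SD 0.424) was nearest to e(y)2b (0.236), Trxr-2 (0.267) and CR45929 (0.269). TotX (SD 0.634) was nearest to CR44506 (0.249), CR45966 (0.269) and CG31300 (0.279). The neighbours of dome (SD 0.128) were Nplp1 (0.0454), amon (0.0457) and Osbp (0.0464), and those of Socs36E (SD 0.0805) were CR44959 (0.0391), Hydr2 (0.0435) and dac (0.0465). No other of the 10 genes was among these neighbours.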

How the data were processed

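The deposited files held whole-number read counts per gene, not normalised, with each gene's symbol, identifier, strand and start and end. Per the submitters' processing notes, the tools included Trimmomatic, STAR, bedtools and DESeq, and the builds named were BDGP6 and mm10, with no roles given. Coordinates are 1-based as in the files, and those of all 10 genes matched Ensembl release 115 on BDGP6. Libraries came from total RNA and kept the strand without poly(A) selection, per the labels' protocols.

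Counts were fitted with edgeR 4.0.16 in R 4.3.3 (limma 3.58.1 and DESeq2 1.42.0 as alternatives), with trimmed mean scaling, filterByExpr by group, robust quasi-likelihood fits of 4 group means over 16 libraries, and Benjamini-Hochberg adjustment over 13525 genes. The common biological coefficient of variation was 0.106. SE is the absolute log2 fold change over the square root of F. No exact test was needed, since all 10 genes passed the filter. Replicate files differed by more than sampling noise, with chi-square per degree of freedom from 6.906 to 43.66. Chrom2-5R replicate 4 gave 21.93 to 25.02 against the rest of its group, which gave 6.906 to 9.503 among themselves.

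The 10 genes are all named. Pathway genes are named where called in any comparison, and each called gene's 3 nearest in pattern (log2 CPM, prior count 2) are named. The 10 genes, the pathway list and the marker lists were chosen with earlier results of these data known.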

Additional observations from a re-analysis of the deposited data

Results flagged for a closer look

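In groups of 4 libraries the gap from the highest or lowest library to the next, as a share of the group's range, was compared with Dixon's critical value at 95% in 92 groups, of which chance picks out about 1 in 20. TotA had 47.2 CPM in Chrom2-160R replicate 4 against 62.1 to 64.7 CPM in its other libraries, a share of 0.852. TotM had 41.6 CPM in Chrom3-160R replicate 4 against 3.94 to 5.35 CPM in the others (0.962), and Diedel had 10.7 CPM in the same library against 0.342 to 0.682 CPM (0.967). Diedel also had 0.161 CPM in Chrom2-5R replicate 3 against 0.435 to 0.471 CPM (0.884). Socs36E had 81.3 CPM in Chrom2-5R replicate 1 against 86.5 to 87.1 CPM (0.897). The dome level was 56 CPM in Chrom3-160R replicate 3 against 58.5 to 58.9 CPM (0.875). Rel had 146 CPM in Chrom3-5R replicate 2, whereas its other libraries were all near 133 CPM (0.953).

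For 4 genes the change with the repeat differed between the 2 chromosomes by edgeR's test of the difference itself. The log2 change on chromosome 3 minus that on chromosome 2 was -1.37 for upd3 (adjusted p = 0.0357), 0.27 for Stat92E (adjusted p = 0.00204), 0.27 for vir-1 (adjusted p = 0.0281) and -0.94 for Listericin (adjusted p = 0.000835).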

How the results depend on the processing

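Over the 10 genes and 5 comparisons, 1174 values under alternatives were compared with the reported ones. Of these 1144 stayed on the same side of the threshold, 22 lost a call, 8 gained one and 0 called values reversed. A change of sign in a value called in neither setting was not counted. The losses were those of upd3 in the interaction (14), Socs36E between the 5R groups (5) and TotA between the 160R groups (3), all given above.

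The count of genes called on chromosome 3, 285, was 531 by DESeq2. That on chromosome 2, 3535, was 2293 in a fit of the 2 groups alone, in which fewer genes (12278) and fewer libraries entered. Leaving out 1 library at a time gave 167 to 452 genes on chromosome 3, 2657 to 3779 on chromosome 2, 584 to 1695 for the interaction (983 in all), 2191 to 3311 between the 160R groups (3043) and 3291 to 4446 between the 5R groups (4103). The chromosome 3 count moved over 1.5 times without Chrom2-160R replicate 1 (452), Chrom3-160R replicate 2 (181) or 3 (170), and Chrom3-5R replicate 1 (176) or 3 (167). The interaction count did so without Chrom2-160R replicate 2 (600), Chrom2-5R replicate 1 (632), 3 (584) or 4 (1695), Chrom3-160R replicate 1 (636) or 2 (625), and Chrom3-5R replicate 1 (597). The cause was not tested. Leaving out both libraries that stood apart, and taking the TotX counts off CG5621, were chosen after seeing the data.

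Replicate numbers are shared between groups in the labels. Deviations of same-numbered libraries had correlations from -0.151 to 0.0864 on chromosome 3 and from -0.0186 to 0.0651 on chromosome 2. Across the lines they ran from -0.247 (Chrom2-160R and Chrom3-160R replicate 4) to 0.244 (Chrom2-160R and Chrom3-5R replicate 4). With 4 libraries a group, these values cannot show whether a number stands for a shared batch. With a replicate block, 197 genes were called on chromosome 3, 3052 on chromosome 2, 647 for the interaction, 2671 between the 160R groups and 3717 between the 5R groups, and no call among the 10 genes changed. Of the pathway genes, the block ended the calls of Socs16D (0.0787) and Tep4 (0.0523) between the 160R groups and of zfh1 (0.0616) between the 5R groups. Scaling by relative log expression moved the median of all genes by at most 0.008 in size (log2, -0.008 between the 5R groups). Depth limits upd2 and upd3 most, at 3 to 26 counts a library.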
